A study of Macaca fascicularis with 6 samples.

Results

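The tissue that filled chondral defects of the knee was compared at the level of single-cell transcriptomes, 4 months after surgery, between defects that had received a cartilage organoid made from induced pluripotent stem cells (post-transplant cyiPS-Cart) and defects left empty, which had filled with fibrous tissue (cyFT). The comparison holds 640 cells, 320 of each sample, of the 7007 cells in the deposited matrices, and its cells were taken by the sample prefix of their names. The recipients were cynomolgus monkeys of 3 to 4 years with defects in the femoral trochlea of the right knee, and no immunosuppressive drug was given. The graft was allogeneic and derived from 1466A1, a single line of cynomolgus monkey iPS cells that carries a GFP cassette under the ubiquitous CAG promoter at the AAVS1 locus, whereas cyFT cells were those of the host. GEO's label lists post-transplant cyiPS-Cart as wild type, although its cells held the transgene transcript. Per the methods, 3 monkeys of each group were killed at this time and pairs of transplanted sites of a monkey were combined, and how many of these monkeys either sample pools is not given in the sources used here. Each group was thus 1 sample, and no test between them was possible. Graft and host also differed in the donor of the cells, in the library and in its depth, and these cannot be told apart from the treatment of the defect. Intact articular cartilage (cyAC), which was hashtagged and sequenced in the library of cyFT, and the organoids before transplantation (pre-transplant cyiPS-Cart), from the same donor line as the graft, are given beside the results where they help to place a value.

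In hyaline cartilage, chondrocytes lay down thin fibrils of type II collagen with a type XI core and a coat of type IX, and fill the space between them with aggrecan, held on hyaluronan by link protein. Fibrous repair tissue is built on type I collagen, a heterotrimer of the *COL1A1* and *COL1A2* chains, with types III, V, XII and XIV. Chondral defects do not reach the bone marrow and are known to heal poorly, so which of these matrices the cells in the defect transcribe is the question that the comparison addresses.

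In post-transplant cyiPS-Cart, 29855420 reads were counted over 320 cells (median 80335.5 a cell), and in cyFT 11087496 over 320 cells (median 27499.5 a cell). The median number of genes per cell was 2594.5 and 2300, and the median mitochondrial share 1.68% and 3.76%. No cell barcode was shared between the samples. The transgene transcript GFP-polyA was read in 320 of 320 post-transplant cells, at 5504 CPM (counts scaled to a total of 1e+06 per sample), and in 0 of 320 cyFT cells, which allows a share of up to 0.938%. This limit takes 3 cells of 320 for a count of 0, and other intervals are exact 95% intervals. Both cover counting error only. Both samples carried Y-linked transcripts, with *RPS4Y2* in 97.5% and 90.9% of cells. Of 8 pan-immune and macrophage markers, 3 or more were read in 0 of 320 post-transplant cells and in 16 of 320 cyFT cells (5%, 2.88 to 7.99), which held 96.9% of the reads of these markers in cyFT. Of 5 T cell markers, 3 or more were read in 13 post-transplant cells (4.06%, 2.18 to 6.85) and 1 cyFT cell, at summed levels of 18.5 and 26.4 CPM, without thinning to equal depth. Of 9 chondrocyte markers, 3 or more were read in 320 post-transplant and 318 cyFT cells, and of 10 fibroblast markers in 319 and 306 cells, so neither list told the samples apart by detection. The fibroblast markers, which include 3 collagen chains, summed to 79069.6 and 52581 CPM. The 7 macrophage markers summed to 675 CPM in cyFT (single markers 21.6 to 247) and to 5.02 CPM in post-transplant cyiPS-Cart, and none was at 0 in either. The 5 endothelial markers summed to 0.469 CPM in the graft, with 4 of them at 0, and to 9.20 CPM in cyFT, with 2 at 0, and no cell of either sample held 3 of them.

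Levels were compared as the log2 ratio of CPM + 1, post-transplant cyiPS-Cart over cyFT, over the 3389 genes that reached 50 CPM in one of the samples or in both and were read in 25% or more of the cells of one or both. Of these, 266 genes (7.85%) were at least 2-fold higher in post-transplant cyiPS-Cart, 725 genes (21.4%) at least 2-fold higher in cyFT and 70.8% within 2-fold. The median over all 3389 genes was -0.29 on the log2 scale, with quartiles of -0.89 and 0.31, and the ratios printed here are not corrected for that shift. The 10 genes with the most reads took 24.1% of the reads of post-transplant cyiPS-Cart and 15.7% of those of cyFT. With edgeR's TMM factors the median was 0.14, over the 3400 genes that then passed the filter, a shift of 0.421 that includes the change in genes, and 517 genes (15.2%) were at least 2-fold higher in the graft and 432 (12.7%) in cyFT. At 50 CPM or more, the interval of a summed level was at most 8.41% to either side, which covers the counting of reads and not the difference in depth between the libraries. Without the 16 cyFT cells that held immune markers, an alternative chosen after seeing the data, the counts were 268 and 693 of 3363 genes.

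**Figure D1:**
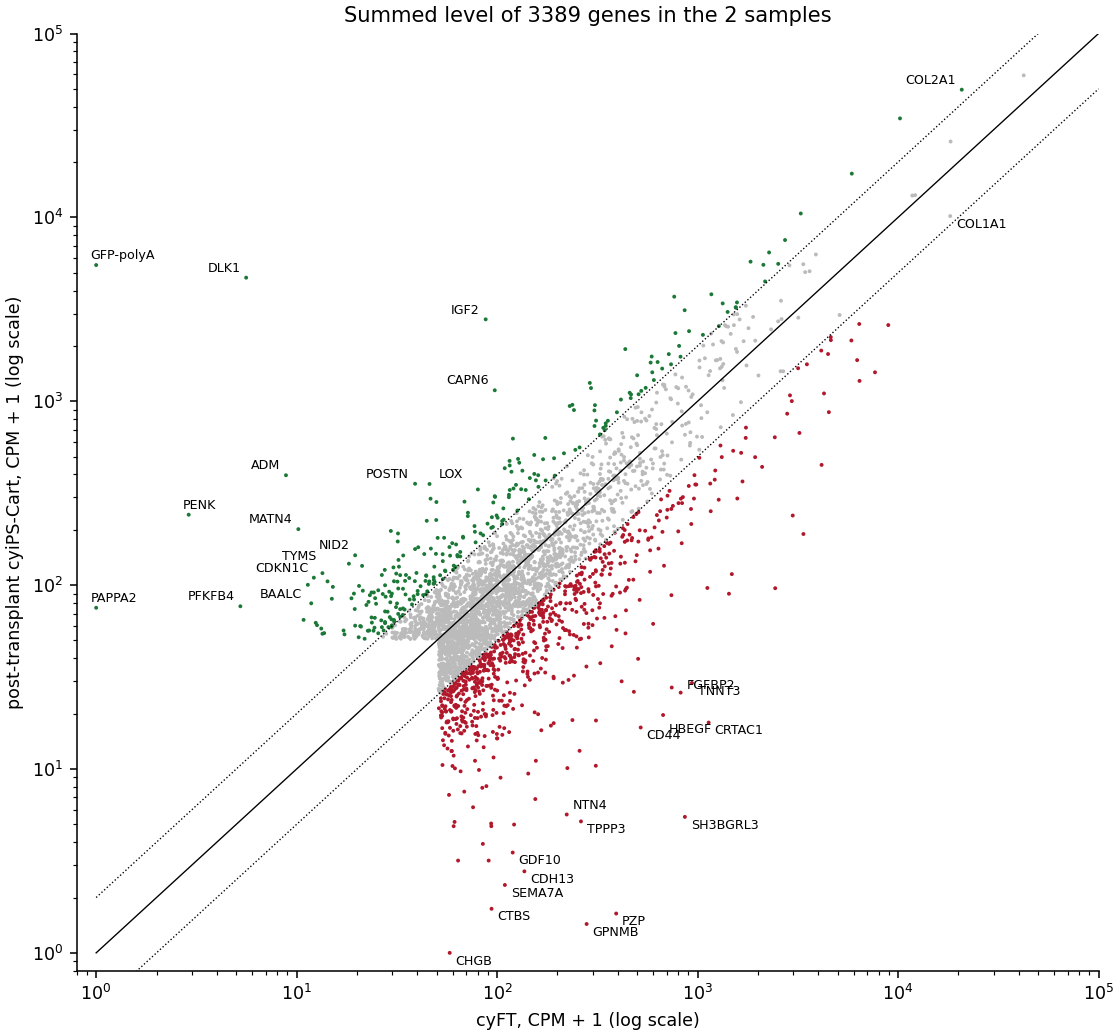
Summed level of each of the 3389 genes in cyFT (x axis, CPM + 1, log scale) and in post-transplant cyiPS-Cart (y axis, CPM + 1, log scale). The solid line marks equal levels and the dotted lines 2-fold differences. Green points are the 266 genes at least 2-fold higher in post-transplant cyiPS-Cart, red points the 725 at least 2-fold higher in cyFT, and the names are *COL2A1*, *COL1A1* and the 15 genes with the largest ratio in each direction.

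Transcripts of the cartilage collagens were higher in post-transplant cyiPS-Cart. Of the 6 genes of this list that were measured, all of which passed the filter, 4 were at least 2-fold higher in the graft (against 7.85% of all genes) and none in cyFT, and their median log2 ratio was 1.20. Among cells with *COL2A1* and no *COL1A1* reads alone, *COL2A1*, by which they were chosen, was left out. None of the other 5 genes was at least 2-fold higher in the graft and 1 was in cyFT (13.9% and 22.7% of all genes in these cells), with a median of 0.35. *COL2A1*, the chain of type II collagen, was at 49488 CPM in post-transplant cyiPS-Cart (49408 to 49568) and at 20777 CPM in cyFT (20692 to 20862), a log2 ratio of 1.25. It was read in 97.5% of post-transplant cells (95.1 to 98.9) and 36.6% of cyFT cells (31.3 to 42.1). Among the cells that held *COL2A1* reads, the median level was 51232 and 40941 CPM, within 2-fold. The lowest count of *COL2A1* left by the background correction of the authors stood for 4407 CPM at the median depth of the graft and 7673 CPM at that of cyFT, and 97.2% and 34.1% of cells were at or above the higher of these limits. *COL9A1*, a chain of the type IX collagen that coats type II fibrils, was at 10498 against 3269.6 CPM, a log2 ratio of 1.68. *COL11A1*, a chain of the type XI collagen in the core of the fibril, was at 7528 against 2728 CPM, a log2 ratio of 1.46. Unlike *COL2A1*, both were read in most cells of both samples, with *COL9A1* in 94.7% and *COL11A1* in 94.4% of cyFT cells. At or above the higher limit of both libraries, *COL9A1* was found in 98.4% of post-transplant and 70.6% of cyFT cells, and *COL11A1* in 100% and 82.5%. *COL11A2* had a log2 ratio of 1.15, *COL9A2* of 0.43, and *COL27A1*, a minor fibrillar collagen of growing cartilage, was lower in the graft, at 116 against 211.5 CPM.

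**Figure D2:**
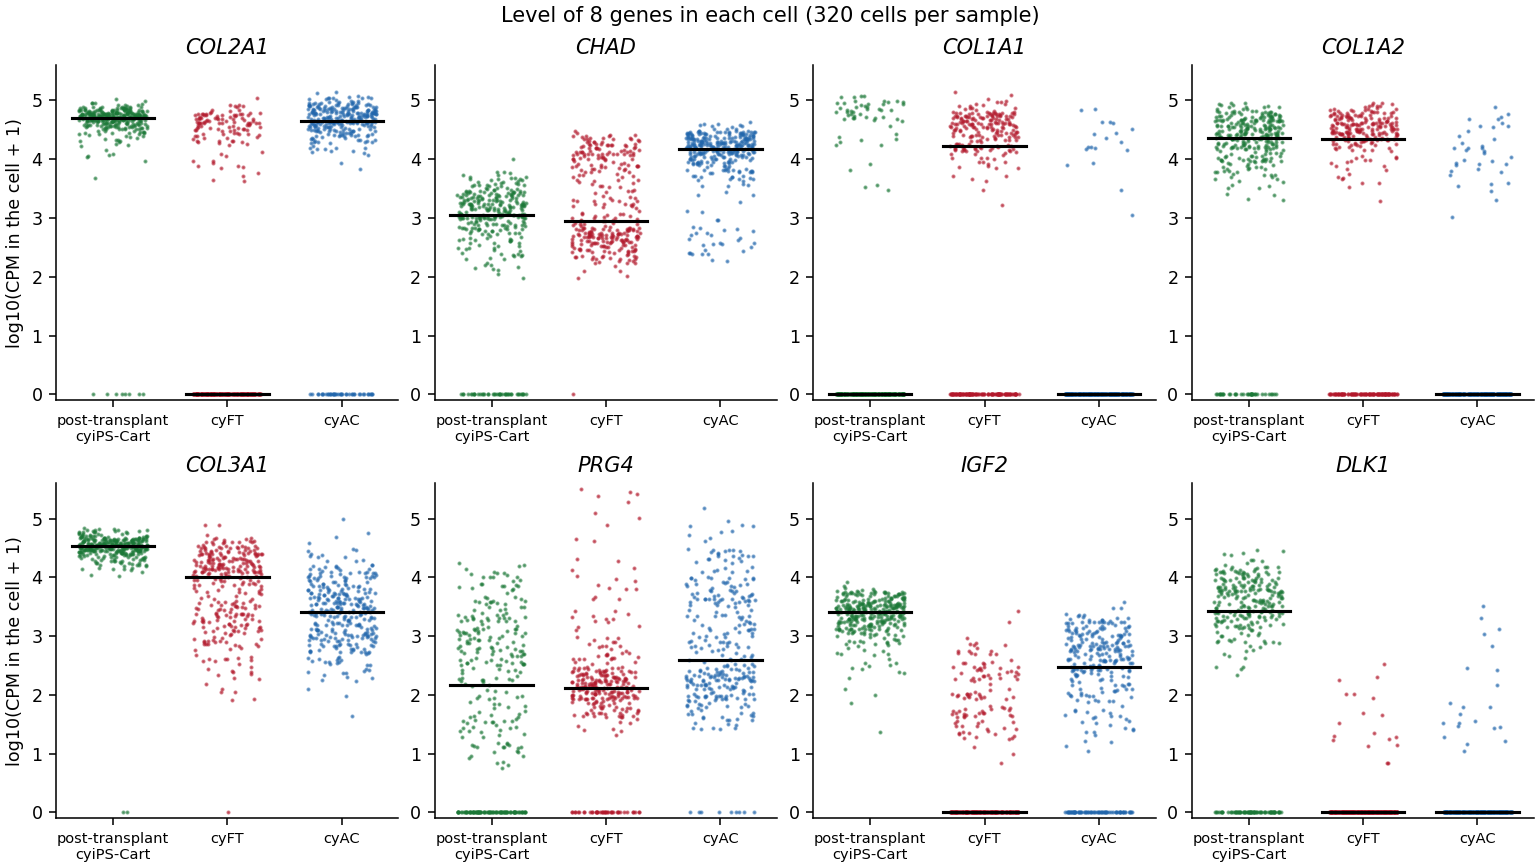
Level of 8 genes in each of the 320 cells of post-transplant cyiPS-Cart, cyFT and cyAC, as log10(CPM in the cell + 1) on the y axis. Points are cells and the bar is the median over all cells. *COL2A1* lies at 0 in most cyFT cells, *COL1A2* and *COL3A1* are high in most post-transplant cells, and a few cyFT cells hold the highest *PRG4* levels.

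The non-collagenous matrix of cartilage did not follow the collagens as a block. Of 17 genes of this list past the filter, 5 were at least 2-fold higher in the graft, 6 at least 2-fold higher in cyFT (7.85% and 21.4% of all genes) and 6 within 2-fold, with a median log2 ratio of 0.49. *ACAN*, the core protein of aggrecan, was at 5559 against 3366 CPM (log2 ratio 0.72), and *HAPLN1*, the link protein that ties aggrecan to hyaluronan, at 2459 against 2325 CPM (log2 ratio 0.081). Both were therefore within 2-fold. Higher in the graft were *SCRG1*, a secreted peptide of differentiating chondrocytes, at 6445 against 2272 CPM, *CLEC3A*, a cartilage lectin, at 5520.3 against 2128 CPM, and the matrilins *MATN3* (349.9 against 123 CPM) and *MATN4* (201 against 9.20 CPM), which bridge collagen and proteoglycan. *MATN4* was also at 10.9 CPM in cyAC and 313 CPM in pre-transplant cyiPS-Cart, so that its level in the graft was on the side of the organoid. On the other side, *CHAD*, which encodes chondroadherin, a cell-binding protein of mature cartilage, was at 1436 against 7669 CPM, a log2 ratio of -2.42, and at 15717 CPM in cyAC. The median over single cells was 1104 CPM in the graft and 904 CPM in cyFT, so the higher sum of cyFT came from a part of its cells. *CRTAC1*, cartilage acidic protein, was at 16.9 against 1134 CPM, and *VIT*, which encodes vitrin, at 17.4 against 310.2 CPM. *MATN2*, *ECRG4* and *CNMD*, the last of which encodes the antiangiogenic chondromodulin, were the others at least 2-fold higher in cyFT, with log2 ratios of -1.71, -1.56 and -1.48. Another 4 genes of the list did not pass the filter, among them *MATN1* and *EPYC*, and *COMP* was not analysed here.

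Type I collagen differed in opposite directions for its chains. *COL1A1* was at 10168 CPM in post-transplant cyiPS-Cart (10132 to 10204) and 18192 CPM in cyFT (18113 to 18272), a log2 ratio of -0.84, whereas *COL1A2* was at 25851.5 and 18279 CPM, a log2 ratio of 0.50. *COL1A1* was read in 16.9% of post-transplant cells (12.9 to 21.4) and 63.4% of cyFT cells (57.9 to 68.7), and *COL1A2* in 88.4% and 66.6%. In cyFT the chains were found in the same cells, with both in 203 of 320 cells, *COL1A2* alone in 10 and *COL1A1* alone in 0. In the graft, 230 cells of 320 (71.9%, 66.6 to 76.7) held *COL1A2* and no *COL1A1* reads, and 53 held both. The authors set counts that they took for diffused background to 0 in strongly expressed genes, and the lowest count left for *COL1A1* was 497 reads in a post-transplant cell and 81 in a cyFT cell, which is 6187 and 2946 CPM at the median depth of each sample. For *COL1A2* it was 268 and 105 reads, or 3336 and 3818 CPM, so a 0 in these genes means below such a level and not absent. Counting only cells at or above the higher of both limits, *COL1A1* was found in 15.9% of post-transplant and 61.6% of cyFT cells, and *COL1A2* in 85.9% and 65.9%.

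The other fibrous and pericellular collagens differed gene by gene. This list had 12 genes past the filter, *COL1A1* and *COL1A2* included. Of these, 2 were at least 2-fold higher in post-transplant cyiPS-Cart and 1 in cyFT (7.85% and 21.4% of all genes). The other 9 were within 2-fold, and the median log2 ratio was 0.28. *COL3A1*, the type III collagen of extensible tissue and early repair, was at 34538.5 against 10222 CPM, a log2 ratio of 1.76, and at 5177 CPM in cyAC and 11792 CPM in pre-transplant cyiPS-Cart. Over cells, its lower quartile was 27554.5 CPM in the graft and 1944 CPM in cyFT. *COL5A1* and *COL5A2*, chains of the type V collagen that nucleates type I and III fibrils, had log2 ratios of 1.37 and 1.00, the second just under 2-fold. Lower in the graft was *COL14A1*, a fibril-associated collagen of dense connective tissue, at 88.8 CPM in the graft and 1433 CPM in cyFT, a log2 ratio of -4.00. Among cells with *COL2A1* and no *COL1A1* reads it was at 65.2 against 87.9 CPM, within 2-fold. *COL6A3*, a chain of the pericellular type VI collagen, was at 314 against 590.5 CPM, while *COL6A1* and *COL6A2* were not analysed here.

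Cell by cell, the reads of 27 cartilage matrix genes and of 14 fibrous and pericellular collagens placed the samples differently. Cartilage matrix genes took a median of 11.1% of the reads of a post-transplant cell (quartiles 8.95 and 12.5) and 2.72% of those of a cyFT cell (quartiles 1.32 and 9.03). Fibrous collagens took a median of 6.82% (quartiles 5.04 and 8.98) and 6.45% (quartiles 0.448 and 11.4). The graft thus differed from cyFT in the cartilage share and overlapped it in the fibrous share, with a narrower spread over cells. In cyAC the fibrous share had a median of 0.729%. More reads of cartilage matrix than of fibrous collagens were found in 78.8% of post-transplant cells (73.9 to 83.1) and 41.6% of cyFT cells (36.1 to 47.2). These shares of reads are not corrected for gene length. The shares of cells with more cartilage reads depended on *COL2A1* and *COL1A1*, since without both genes the shares of cells were 40.3% and 42.5%. The median share of reads in the other cartilage matrix genes was still 5.77% in the graft and 2.71% in cyFT.

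**Figure D3:**
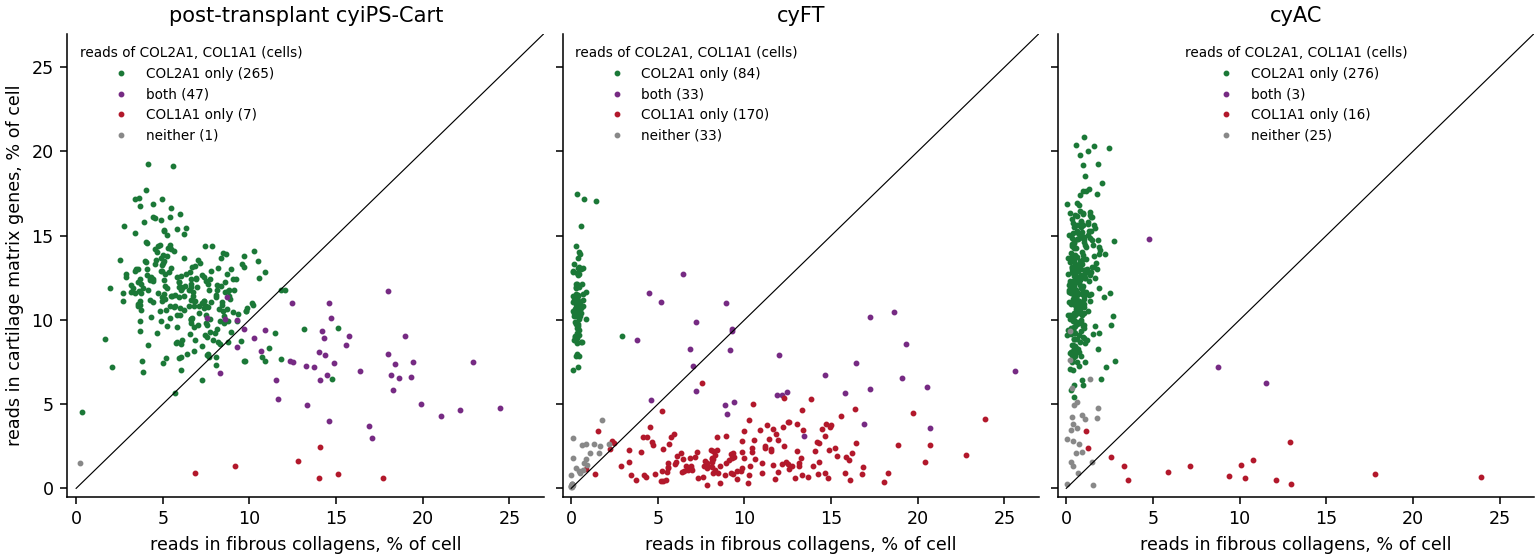
Each point is 1 cell of post-transplant cyiPS-Cart (left), cyFT (middle) or cyAC (right), with its reads in fibrous and pericellular collagens (x axis, % of the reads of the cell) and in cartilage matrix genes (y axis, % of the reads of the cell). Colours give the cells with *COL2A1* reads only, reads of both genes, *COL1A1* reads only or neither, and the line marks equal shares. The *COL2A1*-only cells of the graft lie to the right of those of cyFT and cyAC, which sit near 0 on the x axis.

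The cyFT sample was not uniform. Besides 170 cells with *COL1A1* and no *COL2A1* reads, it held 84 of 320 cells with *COL2A1* and no *COL1A1* reads, against 265 of 320 in the graft, so that by both genes cyFT was a mixture. Cells of cyFT and cyAC were told apart by hashtag within 1 library. These *COL2A1*-only cells were compared between the samples as a class, with the reservation that both genes chose them and that the limit of *COL1A1* was higher in the graft. At 54416.5 and 45782 CPM, *COL2A1* was at a like level in them, and *COL9A1* (11846 against 6615 CPM), *COL11A1* (7941 against 4659 CPM) and *SPARC* (62351 against 69631 CPM) were within 2-fold. The class differed in fibrous matrix. *COL1A2* was at 20977 CPM in them and 171 CPM in the cyFT cells, *COL3A1* at 36031 against 1766 CPM, and *COL5A2* at 2189.9 against 38.6 CPM. The same held for *TNC*, which encodes tenascin-C, a matricellular protein of healing tissue (2531 against 33.9 CPM), and for *VCAN*, the large proteoglycan of provisional matrix (547 against 10.7 CPM), although over all cells *TNC* was at 2718 and 2521 CPM and *VCAN* at 659 and 325 CPM. In the 276 cyAC cells of this class, *COL1A2* was at 62.9 CPM, *COL3A1* at 4474, *COL5A2* at 260.0, *TNC* at 463 and *VCAN* at 40.9 CPM. Over the list of fibrous and pericellular collagens without *COL1A1*, 8 of 11 genes were at least 2-fold higher in the graft cells of the class and none in the cyFT cells, with a median log2 ratio of 2.19. For all 3324 genes past the filter in this class, 13.9% were at least 2-fold higher in the graft and 22.7% in cyFT, and the median was -0.14.

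Several transcripts were higher in the *COL2A1*-only cells of cyFT. *CHAD* was at 16163 CPM in them, close to the 17736 CPM of the same class in cyAC, and at 1581 CPM in the graft. *SPP1*, which encodes osteopontin, a phosphoprotein of mineralizing tissue, was at 6962 against 250.1 CPM in the graft and 522 CPM in cyAC, although 86.5% of all *SPP1* reads of cyFT came from 10 cells. *SERPINA3*, a protease inhibitor, was at 6557 against 936 CPM, and *FRZB*, a secreted WNT antagonist of articular chondrocytes, at 5426 against 1440.2 CPM. The *COL1A1*-only cells of cyFT, by contrast, held *COL1A2* at 33755, *COL3A1* at 19711 and *COL14A1* at 2950.2 CPM, with *ASPN* at 1867 and *VIM* at 13271 CPM. The 33 cyFT cells with neither gene had the highest *PRG4*, at 36189 CPM, and the highest *CD44*, at 2224 CPM, among the 4 classes of cyFT cells. In the graft, the 47 cells with both genes held *COL1A1* at 57022 CPM and *COL2A1* at 31315 CPM, and *GFP-polyA* at 4675 CPM, against 5672 CPM in the *COL2A1*-only cells.

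**Figure D4:**
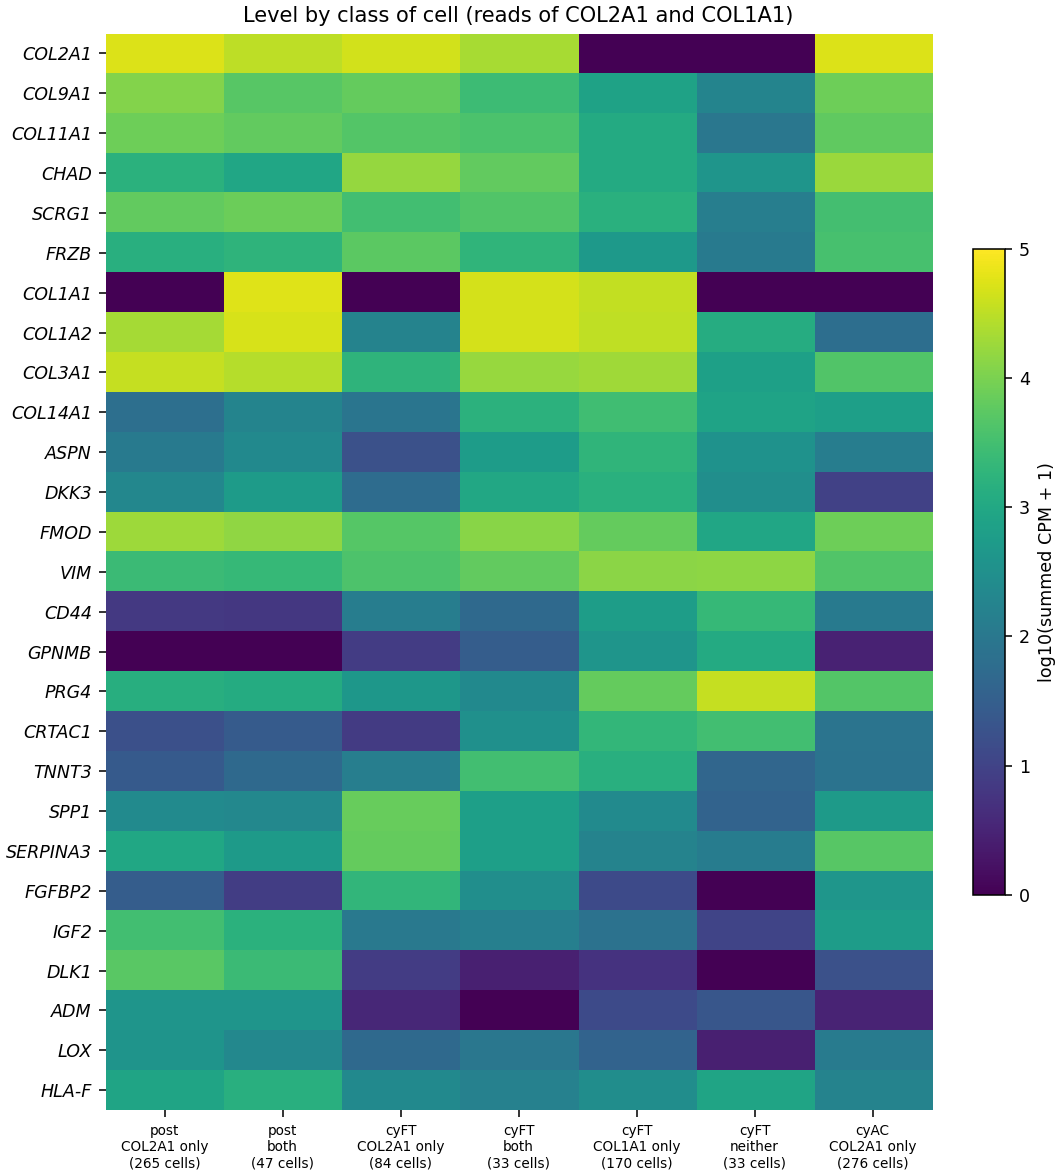
Level of 27 genes (rows, log10 of summed CPM + 1, colour scale) in classes of cells defined by reads of *COL2A1* and *COL1A1* (columns, with the number of cells). The *COL2A1*-only cells of post-transplant cyiPS-Cart are bright for *COL1A2* and *COL3A1*, the same class of cyFT and cyAC is dark for *COL1A2*, and *DLK1* is bright in both post-transplant classes and dark in the 4 classes of cyFT.

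Small leucine-rich proteoglycans, which bind collagen fibrils and set their diameter, were within 2-fold in 7 of 9 genes, near the 70.8% of all genes, with a median log2 ratio of 0.39. *FMOD*, fibromodulin, was higher in the graft, at 17292 against 5876 CPM, and *ASPN*, asporin, was lower, at 168 against 832 CPM with reads in 19.4% and 68.4% of cells. *BGN*, biglycan, was at 13143.5 and 11778 CPM. In the list of scar and matricellular proteins, 4 of 19 genes were at least 2-fold higher in the graft, 3 at least 2-fold higher in cyFT (7.85% and 21.4% of all genes) and 12 within 2-fold, with a median log2 ratio of 0.18. Within *COL2A1*-only cells the counts were 10 and 1, against 13.9% and 22.7% of all genes in them, and the median was 1.27. *SPARC*, the collagen-binding osteonectin, was at 59193 and 42327 CPM and *FN1*, fibronectin, at 13207 and 12159.6 CPM. *POSTN*, periostin, a matricellular protein of periosteum and of wounds, was at 355 against 38.0 CPM, a log2 ratio of 3.19, and *MFAP4*, a microfibril-associated protein, at 282 against 48.8 CPM. Both stood at 2248 and 1937 CPM in pre-transplant cyiPS-Cart. *CCN2*, connective tissue growth factor, was the gene of the list furthest toward cyFT, at 126 against 679 CPM, a log2 ratio of -2.42.

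Surface and marker genes of fibroblasts other than collagens and proteoglycans were mostly lower in the graft. None of the 7 genes of this list past the filter was at least 2-fold higher in the graft and 4 were at least 2-fold higher in cyFT (7.85% and 21.4% of all genes), with a median log2 ratio of -1.59. *CD44*, the hyaluronan receptor, was at 15.8 CPM in post-transplant cyiPS-Cart and 519 CPM in cyFT, a log2 ratio of -4.95, and was read in 4.38% and 45.9% of cells. It stood at 138 CPM in cyAC and 226 CPM in pre-transplant cyiPS-Cart, so the graft was the lowest of the 4 samples. In *COL2A1*-only cells, 2 of the 7 were at least 2-fold higher in the graft and 1 in cyFT (13.9% and 22.7% of all genes in them). *VIM*, vimentin, was at 2595 against 8933 CPM, and *PDGFRB*, a receptor of mesenchymal and mural cells, at 14.3 against 105 CPM. In *COL2A1*-only cells *VIM* was at 2603 against 4025 CPM, within 2-fold, and *PDGFRB* at 11.3 against 2.68 CPM. *FAP*, the fibroblast activation protein, was at 430.4 and 393 CPM and did not differ by 2-fold. Another 5 genes of the list, among them *PDGFRA* and *CD34*, were at most 26.7 CPM and did not pass the filter.

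Genes of the contractile cytoskeleton were also lower in the graft, with 6 of 8 at least 2-fold higher in cyFT (against 21.4% of all genes), none in the graft and a median log2 ratio of -1.29. With TMM factors 3 of the 8 were at least 2-fold higher in cyFT, against 12.7% of all genes. *ACTB* and *ACTG1*, the cytoplasmic actins of every cell, were at 1806 against 4473 CPM and 871 against 4515 CPM. *TAGLN*, transgelin, was at 38.7 against 504 CPM (log2 ratio -3.67) and *MYL9*, a myosin light chain, at 8.88 against 80.2 CPM (log2 ratio -3.04). Within cyFT, *TAGLN* and *ACTG1* were highest in the *COL2A1*-only cells, at 821 and 8102 CPM. *ACTA2*, the smooth muscle actin that defines myofibroblasts, did not pass the filter, with 13.4 against 52.6 CPM and reads in 10.6% and 11.9% of cells. Integrins and other matrix receptors followed the same direction. None of 11 genes was at least 2-fold higher in the graft and 6 were so in cyFT (7.85% and 21.4% of all genes), with a median log2 ratio of -1.05. With TMM factors 4 were so in cyFT, against 12.7% of all genes. Within *COL2A1*-only cells 2 were at least 2-fold higher in the graft and 5 in cyFT (13.9% and 22.7% of all genes in them), and the median was -0.084. *ITGA5*, the fibronectin receptor chain, was at 71.9 against 438 CPM, *ITGB1*, its partner, at 496 against 652 CPM, and *ITGA10*, the collagen receptor chain of chondrocytes, at 255 against 173 CPM.

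Enzymes that modify and crosslink collagen were higher in the graft. Of 14 genes past the filter, 7 were at least 2-fold higher in the graft and 1 in cyFT (7.85% and 21.4% of all genes), with a median log2 ratio of 0.84. The counts were the same with TMM factors, against 15.2% and 12.7% of all genes. *LOX*, lysyl oxidase, which starts the crosslinking of collagen and elastin, was at 354 against 45.0 CPM, a log2 ratio of 2.95, with reads in 78.1% and 26.9% of cells. Its relatives *LOXL2* and *LOXL3* were at 126 against 20.2 CPM and 955 against 236 CPM. *PLOD2*, the lysyl hydroxylase of telopeptides, was at 1182 against 549.7 CPM, and *P3H2*, a prolyl 3-hydroxylase, at 485 against 126 CPM. *SERPINH1*, the collagen chaperone HSP47, was at 1712 and 1087 CPM, within 2-fold. *PCOLCE2*, an enhancer of procollagen cleavage, was the 1 gene of the list at least 2-fold higher in cyFT, at 224 against 639.8 CPM.

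Of 5 chondrogenic transcription factors past the filter, 4 were within 2-fold and 1 was higher in cyFT, shares near those of all genes. *SOX9*, the master regulator of chondrocytes, was at 785 CPM in the graft and 555 CPM in cyFT, a log2 ratio of 0.50, and was read in 90.6% and 72.5% of cells. *SOX5*, its cofactor, was at 77.8 and 147 CPM, and *TRPS1*, a repressor in growth plate cartilage, at 307 and 341 CPM (with TMM factors its log2 ratio turned from -0.15 to 0.19). *NFATC1*, a factor of articular progenitors, was the 1 at least 2-fold higher in cyFT, at 15.7 against 108 CPM. *SOX6*, *SOX8* and *BARX1* were among the 6 that did not pass.

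Genes of hypertrophy and mineralization were higher in cyFT or low in both. Of 5 past the filter, 3 were at least 2-fold higher in cyFT and none in the graft, against 21.4% and 7.85% of all genes. With TMM factors 2 were so in cyFT and none in the graft, against 12.7% and 15.2%. *SPP1* was at 238 against 2981 CPM, a log2 ratio of -3.64, but its median over single cells was 0 and 32.8 CPM. *PTH1R*, the receptor of parathyroid hormone-related protein, was at 50.5 against 204 CPM, and *ANKH*, a pyrophosphate transporter, at 397 against 703 CPM. *COL10A1*, the collagen of hypertrophic chondrocytes, was read in 4.38% of the cells of either sample, at 5.73 and 22.0 CPM, and did not pass the filter. *IBSP*, bone sialoprotein, was read in 33 of 320 cyFT cells and 0 of 320 post-transplant cells, where a count of 0 allows up to 0.938%. It stood at 1042 CPM in cyFT, of which 72.0% came from 10 cells. *ALPL*, tissue-nonspecific alkaline phosphatase, was likewise at 0 reads in the graft and at 56.6 CPM in cyFT, with reads in 5.31% of cells.

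Genes of the superficial zone, the lubricated surface layer of articular cartilage, were mostly lower in the graft, with 5 of 9 at least 2-fold higher in cyFT (21.4% of all genes), none in the graft (7.85%) and a median log2 ratio of -1.45. With TMM factors, 2 of the 9 were at least 2-fold higher in the graft and 5 in cyFT (15.2% and 12.7% of all genes). In *COL2A1*-only cells 3 were so in the graft and 4 in cyFT (13.9% and 22.7% of all genes in them), with a median of -0.97. *PRG4*, which encodes the lubricant lubricin, was at 1289 CPM in the graft and 6419 CPM in cyFT, a log2 ratio of -2.32. This rested on few cells, since 10 cells held 90.7% of the *PRG4* reads of cyFT and 32.8% of those of the graft, and the median over cells was 148 and 133 CPM. In *COL2A1*-only cells the direction was the opposite, at 1350.5 against 446 CPM. *CLU*, clusterin, was at 2139.5 against 5846.5 CPM and at 14457 CPM in cyAC. *TPPP3* and *SEMA7A* had log2 ratios of -5.66 and -5.55 and were read in under 3% of post-transplant cells (1.25% and 2.81%), whereas *DPT*, dermatopontin, was at 148 against 73.6 CPM, a log2 ratio of 1.00.

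The IGF axis, which drives the growth of cartilage, differed in both directions. *IGF2*, a fetal growth factor, was at 2788 CPM in post-transplant cyiPS-Cart and 86.7 CPM in cyFT, a log2 ratio of 4.99, with reads in 100% and 36.6% of cells. It stood at 518 CPM in cyAC and 827 CPM in pre-transplant cyiPS-Cart, so the graft was the highest of the 4 samples. *IGF2R*, the receptor that clears IGF2, was at 890.5 against 305 CPM and *IGFBP7* at 1920.5 against 435 CPM. Other binding proteins lay on the side of cyFT, namely *IGFBP6*, which prefers IGF2 as its ligand (26.7 against 742 CPM), *IGFBP5* (66.8 against 388 CPM) and *IGFBP4* (80.8 against 184 CPM). Of the 7 genes past the filter, 3 were thus at least 2-fold higher in the graft and 3 in cyFT, against 7.85% and 21.4% of all genes. In *COL2A1*-only cells 6 were so in the graft and 1 in cyFT, against 13.9% and 22.7% of all genes in them. There *IGFBP4* was at 63.1 against 6.92 CPM and *IGFBP5* at 61.0 against 12.1 CPM. *IGF1* did not pass, with 0 reads in the graft and 8.30 CPM in cyFT.

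Ligands, receptors and targets of TGF-β and BMP signaling, which drive chondrogenesis and fibrosis, did not share a direction. Of 24 genes, 4 were at least 2-fold higher in the graft and 7 in cyFT, against 7.85% and 21.4% of all genes, with a median log2 ratio of -0.20 that turned to 0.13 with TMM factors. Of the ligands, *TGFB1* was at 97.3 against 241 CPM, *TGFB2* at 67.8 against 32.8 CPM, *TGFB3* at 89.4 against 98.0 CPM and *INHBA*, the activin chain, at 251 against 649 CPM. *GDF10*, a BMP relative, was at 2.51 against 119 CPM, a log2 ratio of -5.09. The type I receptor *TGFBR1* was lower in the graft, at 16.8 against 68.7 CPM, and the type II receptor *TGFBR2* was at 85.5 and 104 CPM. Among antagonists, *GREM1*, which binds BMPs, was at 129.8 against 17.2 CPM, and *BAMBI*, a pseudoreceptor, at 294 against 45.5 CPM, both higher in the graft. The BMP target *ID2* was at 1746 against 821 CPM, and *SKIL*, a feedback target of TGF-β, at 259 against 738 CPM.

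Of WNT genes only 4 passed the filter. *NOTUM*, which inactivates WNT ligands, was at 78.6 against 10.8 CPM, and *DKK3* at 269 against 752 CPM. Each sample thus had 1 gene past 2-fold (7.85% of all genes in the graft and 21.4% in cyFT). *FRZB* was at 1455 and 2592 CPM and *WIF1* at 122 and 100.2 CPM. *SFRP1*, *DKK1* and *AXIN2* were at most at 18.9 CPM in both samples.

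Proteases and their inhibitors were mostly lower in the graft, with 9 of 17 genes at least 2-fold higher in cyFT (21.4% of all genes), 4 in the graft (7.85%) and a median log2 ratio of -1.47. *CTSK*, cathepsin K, a collagenase of osteoclasts and synovial fibroblasts, was at 117 against 579 CPM and read in 36.6% and 80.6% of cells. In *COL2A1*-only cells it was at 81.9 against 90.8 CPM, within 2-fold. *MMP14*, a membrane-bound collagenase, was at 106 against 453 CPM, *MMP2*, the gelatinase that MMP14 activates, at 54.7 against 181 CPM, and *TIMP3*, an inhibitor of metalloproteinases and aggrecanases, at 537 against 1503 CPM. The side of the graft included *SERPINA1*, antitrypsin (3446 against 1571 CPM), and *CTSD* and *MMP16*, with log2 ratios of 1.12 and 1.14. *SERPINF1*, an antiangiogenic serpin, was at 24.6 against 121 CPM. The cartilage-degrading *MMP13* and *ADAMTS5* did not pass, with 2.55 and 2.80 CPM and 1.51 and 5.50 CPM. Without the 16 cyFT cells with immune markers, 8 of the 17 were at least 2-fold higher in cyFT (20.6% of all genes) and the median was -0.63. In *COL2A1*-only cells the median was 0.22, with 4 genes past 2-fold in the graft and 4 in cyFT (13.9% and 22.7% of all genes in them).

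Inflammatory mediators were few. In *COL2A1*-only cells, 4 of the 7 past the filter were at least 2-fold higher in the graft and 2 in cyFT (13.9% and 22.7% of all genes in them). The median log2 ratio turned from -0.94 to 1.02. Over all cells, 2 were at least 2-fold higher in the graft and 3 in cyFT (7.85% and 21.4% of all genes). Those of the graft were *PTGS2* and *PTGES*, the inducible enzymes of prostaglandin E2 synthesis, at 520.2 against 214 CPM and 157 against 45.7 CPM. Those of cyFT were *ICAM1* (4.05 against 92.4 CPM), *IL11* and *NFKBIA* (98.1 against 233 CPM). *CXCL8*, *CCL2* and *IL1B*, chemokines and a cytokine of macrophages and activated stroma, did not pass the filter and were read in 4.38%, 4.38% and 3.12% of cyFT cells, at 384, 486 and 118 CPM. In the graft, *CXCL8* and *IL1B* had 0 reads and *CCL2* was at 1.34 CPM. Of the acute-phase genes, *SERPING1*, the C1 inhibitor, was at 53.6 against 435.8 CPM, *C1S* at 126 and 119 CPM, and *CHI3L1*, a glycoprotein of stressed chondrocytes, at 63.9 against 120.0 CPM with reads in 4.06% and 40% of cells. The graft's level of *CHI3L1* rested on few cells, and under a stricter filter on cells its log2 ratio went from -0.90 to -3.58. The median of the 3 acute-phase genes then went from -0.90 to -3.38, with 2 in place of 1 at least 2-fold higher in cyFT (22.2% and 21.4% of all genes).

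The list of MHC class I, which presents peptides to T cells, and of antigen processing had 5 genes past the filter. In the graft, an allograft mismatched for MHC, 4 of the 5 were higher. By at least 2-fold, 2 were higher in the graft and none in cyFT (7.85% and 21.4% of all genes). *CALR* was lower in the graft, with a log2 ratio of -0.63. Without the 16 cyFT cells with immune markers, and likewise in *COL2A1*-only cells, 4 of the 5 were at least 2-fold higher in the graft (7.97% and 13.9% of all genes). *B2M*, the light chain, was at 2874 against 1890.0 CPM, *Mafa-B*, a classical heavy chain, at 1201 against 682 CPM, and *HLA-F*, a nonclassical one, at 951 against 307 CPM. *TAP1*, the peptide transporter, was at 53.8 against 12.7 CPM. In pre-transplant cyiPS-Cart these genes were at 310.4, 404, 218 and 7.04 CPM. Reads of near-identical class I genes may have been divided between symbols when they were assigned, so single genes of this family are uncertain, more so between a donor and hosts of other alleles. No class II gene passed the filter, and *CD74*, the invariant chain, was read in 3.44% and 3.12% of cells. The 4 class II genes measured summed to 38.0 CPM in the graft and 277 CPM in cyFT.

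Immediate early genes, which respond to stimulation within minutes and also to the dissociation of tissue, were divided. Of 18 past the filter, 7 were at least 2-fold higher in the graft and 5 in cyFT (7.85% and 21.4% of all genes), with a median log2 ratio of 0.11 that turned to -0.03 at equal depth. *FOS* was at 5742 against 1836 CPM, *JUN* at 1587 against 736 CPM, *EGR1* at 309 against 114 CPM and *DUSP1* at 1021 against 414 CPM, all higher in the graft. Those higher in cyFT were *FOSL1* (11.6 against 257 CPM), *MYC* (64.8 against 314 CPM) and the heat shock genes *DNAJB1*, *HSPH1* and *HSP90AA1* (631 against 1737 CPM). All tissues were digested with Liberase, and its medium is given for post-transplant cyiPS-Cart and cyAC and not for cyFT, so the part of dissociation in these values was not tested. Among glucocorticoid-responsive genes and metallothioneins, 1 of 9 was at least 2-fold higher in the graft and 2 in cyFT, near the 7.85% and 21.4% of all genes, with *ERRFI1*, an inhibitor of the EGF receptor, at 114 against 1480.5 CPM, *GLUL* at 37.3 against 134 CPM and the metallothionein *MT1E* at 2592 against 1516 CPM. *MT1E* belongs to a family of near-identical genes, between which reads may have been divided.

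Genes induced by hypoxia, the normal state of avascular cartilage, and genes of glycolysis were higher in the graft. Of 21 past the filter, 9 were at least 2-fold higher in post-transplant cyiPS-Cart and 1 in cyFT (7.85% and 21.4% of all genes), with a median log2 ratio of 0.56. The counts were 10 and 0 with TMM factors (15.2% and 12.7% of all genes), 8 and 3 at equal depth and 10 and 3 in *COL2A1*-only cells. *ADM*, which encodes the peptide adrenomedullin, was at 395 against 7.85 CPM, a log2 ratio of 5.48, with reads in 69.4% and 5.62% of cells, and at 5.21 CPM in pre-transplant cyiPS-Cart and 3.89 CPM in cyAC. It was therefore high in the graft alone among the 4 samples. *PFKFB4*, a regulator of glycolysis, was at 75.7 against 4.24 CPM, *EGLN3*, an oxygen sensor, at 88.9 against 18.3 CPM, and *BNIP3*, a mitophagy receptor, at 941 against 229 CPM. Of the glycolytic enzymes, *PGK1* was at 869.7 against 395 CPM, *LDHA* at 1159 against 694 CPM and *ENO1* at 1673 against 1252 CPM. *NDRG1* was the 1 gene at least 2-fold higher in cyFT, at 242 against 494 CPM.

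The 15 genes with the largest ratio toward the graft were led by GFP-polyA and by *DLK1*, a fetal Notch-pathway ligand of progenitor cells, which was at 4699 CPM in post-transplant cyiPS-Cart and 4.60 CPM in cyFT, a log2 ratio of 9.71. *DLK1* was read in 76.9% and 5.62% of cells, and it stood at 4801 CPM in pre-transplant cyiPS-Cart and 16.7 CPM in cyAC. *PENK*, the precursor of enkephalins, was at 240.5 against 1.89 CPM, and *PAPPA2*, a protease of IGF-binding proteins, at 74.3 CPM against 0 reads, which is at least 275-fold higher than the 3 reads over cyFT that a count of 0 allows. Like *DLK1*, both were read before transplantation, at 1954 and 87.4 CPM. *CAPN6*, a calpain that binds microtubules, was at 1146 against 96.3 CPM, *CDKN1C*, an inhibitor of the cell cycle, at 109 against 11.2 CPM, and *BAALC* at 99.4 against 10.4 CPM. *TYMS*, thymidylate synthase, which overlaps a gene on the other strand, was at 115 against 12.4 CPM, while the 4 cycling markers summed to 12.3 CPM in the graft and 73.5 CPM in cyFT. *NID2*, a nidogen of basement and pericellular membranes, was at 144 against 18.6 CPM. The remaining genes of the 15, *ADM*, *IGF2*, *MATN4*, *PFKFB4*, *POSTN* and *LOX*, are described above.

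Toward cyFT, the 15 largest ratios included genes that were nearly silent in the graft. *PZP*, a broad protease inhibitor, and *GPNMB*, a glycoprotein of macrophages and osteoblasts, were each read in 1 post-transplant cell, with 19 and 13 reads, and stood at 392 and 279 CPM in cyFT, where 47.5% and 37.8% of cells held them. *SH3BGRL3*, a thioredoxin-like protein, was at 4.49 against 863 CPM and read in 2.19% and 97.2% of cells. It was at 2.82 CPM in pre-transplant cyiPS-Cart and 899 CPM in cyAC, so that it was low in both samples of the donor line and high in both samples of the host library. *CTBS* showed the same order, at 0.737, 92.8, 0.564 and 79.8 CPM in the graft, cyFT, pre-transplant cyiPS-Cart and cyAC. *CHGB*, a granin of secretory granules, had 0 reads in the graft and 57.0 CPM in cyFT, at least 567-fold higher, and 1173 CPM in cyAC. Its median over single cells was 26.4 CPM in cyFT and 29.6 CPM in cyAC, which share a library, and 1 cyAC cell held 52189.6 CPM. The part of free RNA in its cyFT level was not tested. *TNNT3*, a fast skeletal troponin, was at 28.4 against 936 CPM and read in 9.38% and 65.6% of cells, and within cyFT it was highest in the cells with reads of both *COL2A1* and *COL1A1*, at 3091 CPM. *HBEGF*, a ligand of the EGF receptor, was at 18.7 against 672 CPM. *FGFBP2*, a secreted growth factor-binding protein, was at 25.02 against 822 CPM although it was read in a like share of cells, 32.2% and 30.3%, and in cyFT it was highest in the *COL2A1*-only cells, at 1948 CPM with reads in 95.2% of them. *NTN4*, which encodes a netrin of basement membranes, was at 4.66 against 221 CPM, and *CDH13*, which encodes T-cadherin, at 1.78 against 136 CPM. The others, *CRTAC1*, *TPPP3*, *SEMA7A*, *GDF10* and *CD44*, are described above. In *COL2A1*-only cells, *CRTAC1* (15.7 against 6.25 CPM) and *CDH13* (1.34 against 1.12 CPM) were not lower in the graft, whereas the other 13 remained at least 2-fold higher in cyFT.

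Few genes that mark the origin of cells passed the filter. Of 40 positional transcription factors measured, *PRRX1*, a factor of limb mesenchyme, was the 1 that passed the filter, at 122 and 71.4 CPM, and *HOXA10* and *TBX4*, genes of the lower body and hindlimb, were at 46.7 and 22.9 CPM and 17.0 and 16.5 CPM. No pluripotency gene passed the filter, and the 11 measured summed to 4.62 CPM in the graft and 3.16 CPM in cyFT, with *NANOG*, *SOX2* and *LIN28A* at 0 reads in both. Of the Y-linked genes past the filter, *RPS4Y2*, a close copy of an X-linked gene, was at 750.1 and 621 CPM and *DDX3Y* at 154 and 309 CPM.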

How the data were processed

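Single-cell transcriptomes were read by TAS-Seq on the BD Rhapsody system, in separate libraries for post-transplant cyiPS-Cart and for cyAC with cyFT. The authors deposited counts of reads per gene and cell, without normalization. To make these counts, per the paper's methods, the authors assigned reads with Bowtie2 (version 2.4.2 in the submitters' processing notes) to the Ensembl Macaca_fascicularis_6.0 transcripts, kept cells above the inflection of the knee plot, assigned cells to samples by hashtag, zeroed low counts of strongly expressed genes as diffused background, removed cells with a high mitochondrial share and drew 320 cells per sample. How the GFP transcript was added to the reference is not given in the sources used here. No step that counts molecules is described, so counts were taken as reads. Depths are given with the results.

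Reads were summed per sample and scaled to CPM over the 14020 listed genes. Genes that reached 50 CPM in a sample and were read in 25% or more of the cells of a sample were compared as log2 ratios of CPM + 1, which understate the change of low genes. Ratios are descriptions of 2 samples. Intervals are exact (Poisson for levels, Clopper-Pearson for shares), and a count of 0 was bounded by 3 reads per sample. Levels of single genes were compared between samples, not between genes. In a simulation of 2600 genes with 200 changed, 100% of directions were recovered, and no log2 ratio of a changed gene was off by more than 0.27. Its counts were drawn from pooled proportions with large changes, without spread between cells or zeroed background. It thus checked the calculation and says nothing of how far the ratios of these samples can be trusted. Named are *COL2A1*, *COL1A1*, the 15 largest ratios in each direction and, per list, the 2 highest and 2 most different genes, with further list members named after their values were seen. The comparison and the 26 gene lists were chosen with earlier results of these data known. Python 3.11.15, scipy 1.17.1, scanpy 1.11.5 (scrublet) and edgeR 4.0.16 (TMM factors on the deposited counts) were used. Scrublet marked 8 post-transplant and 2 cyFT cells, which were kept. Alternatives were other pseudocounts, filters, scalings, depths and sets of cells. The hashtag libraries were not used here, and no sequences or coordinates are given.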

Additional observations from a re-analysis of the deposited data

How the results depend on the processing

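With 1 sample per condition no replicate could be left out, and no p-value was at stake. No paired analysis was possible because each condition was 1 sample. The count of genes at least 2-fold higher in post-transplant cyiPS-Cart was 119 with a minimum of 200 CPM, 176 with reads required in 50% of cells, 517 with TMM factors, 496 with median-of-ratios factors and 463 in *COL2A1*-only cells. The count in cyFT was 246, 314, 432 and 448 under the first 4 of these. The first 2 tested fewer genes (859 and 1744), and the scalings moved all ratios up together.

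The log2 ratio of *COL2A1* kept its sign under every setting tried, at 1.77 with the mean of per-cell CPM, 1.59 with TMM, 1.58 with median-of-ratios factors, 1.22 without mitochondrial genes, 1.65 at equal depth, 1.27 with a stricter cell filter and 1.16 without cells with immune markers. That of *COL1A1* was -1.21, -0.50, -0.52, -0.87, -1.14, -1.15 and -0.95 in the same order, and -0.79 without marked doublets.

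Of 1040 log2 ratios of named genes over the settings, 1019 kept their sign, as did 228 of 240 list medians. In *COL2A1*-only cells, genes past 2-fold toward cyFT turned toward the graft, among them *IGFBP4* (3.02), *IGFBP5* (2.25), *MMP2* (0.26), *CRTAC1* (1.21), *CDH13* (0.15), *ASPN* (2.78), *PDGFRB* (1.74), *PRG4* (1.597), *DKK3* (1.78), *SERPINF1* (1.31) and *NFKBIA* (1.02), as did the medians of the proteases (0.216), of inflammatory mediators (1.02), of TGF-β and BMP genes (0.35) and of WNT genes (0.64). This setting keeps other cells, and no further cause was tested. The medians of WNT and glucocorticoid genes turned from below to above 0 with TMM factors (0.063 and 0.0084). Low counts set to 0 by the authors limit what can be said of cells without reads.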

Other observations

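Outside the lists chosen for the comparison, clock genes were higher in post-transplant cyiPS-Cart. This list was chosen after its values were seen. Of 13 clock genes past the filter, 5 were at least 2-fold higher in the graft and none in cyFT (7.85% and 21.4% of all genes). Their median log2 ratio was 0.80 against -0.29 over all genes. *NR1D1*, a repressor in the negative arm of the clock, was at 1257 CPM against 289 CPM, with reads in 95.9% and 62.2% of cells, and at 132 CPM in cyAC and 55.2 CPM in pre-transplant cyiPS-Cart. *CIART*, another repressor, was at 98.0 against 19.5 CPM, and the output factors *TEF* and *HLF* were at 160.1 against 56.8 CPM and 61.4 against 11.5 CPM. The activator *ARNTL* was at 59.2 and 47.4 CPM and *PER2* at 77.1 and 69.7 CPM, while *NR1D2*, a close relative of *NR1D1*, was lower in the graft, at 28.6 against 51.1 CPM. In *COL2A1*-only cells, 7 of the 13 were at least 2-fold higher in the graft (13.9% of all genes in them), and with TMM factors 8 (15.2% of all genes). The hour of harvest is not given in the sources used here, and its part in these values was not tested.

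Imprinted genes, also chosen after their values were seen, differed in both directions. Of 6 past the filter, 4 were at least 2-fold higher in post-transplant cyiPS-Cart and 1 in cyFT (7.85% and 21.4% of all genes). The 4 were *DLK1*, *IGF2*, *CDKN1C* and *MEST*, the last at 431 against 108 CPM. *SGCE* was at least 2-fold higher in cyFT (not with TMM factors), at 67.3 against 168 CPM, and *PLAGL1* was at 162 and 148 CPM. *PEG3*, which did not pass the filter, was read in 1 post-transplant cell and in 10.3% of cyFT cells, and at 0 CPM in pre-transplant cyiPS-Cart.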
